A study of Mus musculus with 16 samples.

Results

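Monocyte and granulocyte fate transcription factors were examined in myeloid-derived suppressor cells (MDSCs) of the mouse spleen. The 10 genes are a list of names among 24421 gene symbols, put together by their known roles and with earlier results of these data known. They are *Spi1*, *Gfi1*, *Klf2*, *Klf4*, *Runx1*, *Rbpj*, *Zeb2*, *Nr4a1*, *Id2* and *Bcl6*. Spleens of 4 WT and 4 Nlrp3-/- mice were sorted into M-MDSCs (monocytic) and G-MDSCs (granulocytic), and RNA of each subset of each mouse was sequenced by QuantSeq, which counts the 3′ ends of transcripts, giving 16 libraries. WT mice were purchased C57BL/6J mice and Nlrp3-/- mice came from another source on a C57BL/6 background, so that source and genotype cannot be told apart. All mice carried a subcutaneous B16.F10 melanoma, a transplanted mouse tumor line with intact *Nlrp3*, so that every group was tumor-bearing. Nlrp3-/- mice carry an EGFP cassette with its own polyadenylation signal in *Nlrp3* in every cell, and therefore lack the gene in the tumor host as a whole and not in MDSCs alone. The study's default was sex- and age-matched young adult mice. M-MDSC and G-MDSC samples that share a replicate number within a genotype carry the same animal code in the labels and are taken as 1 mouse.

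Monocytes and neutrophils arise from a shared bone marrow progenitor, and a small set of transcription factors sets the direction. *Spi1* encodes PU.1, which myeloid cells of both kinds need. *Gfi1* encodes a repressor required for neutrophil differentiation, while *Klf4* and *Zeb2* encode factors needed for the monocyte line, and *Nr4a1* encodes the nuclear receptor on which patrolling, nonclassical monocytes depend. *Runx1* encodes the DNA-binding partner of CBFβ, *Rbpj* the DNA-binding effector of Notch receptors, *Id2* an inhibitor of E proteins that does not itself bind DNA, *Bcl6* a zinc finger repressor, and *Klf2* a zinc finger factor known for quiescence and trafficking of leukocytes.

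The members lie on 7 chromosomes in mm10. *Spi1* and *Zeb2* are at chr2:91082390-91115756 (plus strand) and chr2:44983632-45117395 (minus strand), *Klf4* at chr4:55527143-55532466 (minus), *Gfi1* and *Rbpj* at chr5:107716657-107726036 (minus) and chr5:53466152-53657362 (plus), and *Klf2* at chr8:72319033-72321656 (plus). *Id2* is at chr12:25093799-25097140 (minus), *Nr4a1* at chr15:101254269-101274795 (plus), and *Runx1* and *Bcl6* at chr16:92601466-92826149 and chr16:23965052-23988852 (both minus). *Gfi1*, *Runx1*, *Rbpj*, *Zeb2* and *Bcl6* overlap annotated genes on the opposite strand, from which strand-specific counting separates them. *Zeb2* also overlaps *Mir5129* on its own strand, which such counting does not separate.

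Promoter sequence is shown for *Klf4*, *Runx1*, *Rbpj* and *Zeb2*, the members that were lower in Nlrp3-/- mice in at least 1 subset. The letters come from RefSeq on GRCm38.p6, cover up to 250 bases before a RefSeq start, and leave out bases that GENCODE places in an exon of the gene. They are chr4:55532476-55532725, chr16:92826150-92826324, chr5:53590096-53590213 and chr2:45117443-45117692, and all but that of *Rbpj* are on the minus strand. The *Rbpj* window lies inside the gene as located above, before an internal start, and 132 of its 250 bases are in an annotated exon. Capitals mark core motifs of factors among the members, searched on both strands, namely GAGGAA (PU.1), AAATCA (GFI1), CACCC (KLF factors), TGTGGT (RUNX), TGGGAA (RBPJ), CACCTG (ZEB factors) and AAGGTCA (NR4A receptors). CACCC and CACCTG share their first 4 letters.
Klf4: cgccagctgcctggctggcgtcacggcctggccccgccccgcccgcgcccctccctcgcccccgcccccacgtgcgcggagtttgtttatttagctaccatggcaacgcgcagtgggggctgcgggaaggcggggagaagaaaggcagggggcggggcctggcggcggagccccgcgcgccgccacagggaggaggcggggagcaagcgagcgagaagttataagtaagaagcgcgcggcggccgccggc
Runx1: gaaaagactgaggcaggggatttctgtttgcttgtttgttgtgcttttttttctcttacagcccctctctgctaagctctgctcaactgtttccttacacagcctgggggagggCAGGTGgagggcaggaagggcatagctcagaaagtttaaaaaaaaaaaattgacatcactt
Rbpj: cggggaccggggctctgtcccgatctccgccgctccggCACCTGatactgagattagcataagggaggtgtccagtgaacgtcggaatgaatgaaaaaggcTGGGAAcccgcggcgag
Zeb2: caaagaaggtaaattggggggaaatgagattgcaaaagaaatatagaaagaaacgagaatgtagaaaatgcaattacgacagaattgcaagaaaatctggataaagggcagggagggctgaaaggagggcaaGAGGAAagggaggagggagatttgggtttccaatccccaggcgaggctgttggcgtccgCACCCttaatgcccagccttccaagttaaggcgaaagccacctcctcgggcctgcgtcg

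*Runx1* and *Rbpj* both held the ZEB motif, *Rbpj* also held the motif of its own product, and *Zeb2* held a PU.1 and a KLF motif, whereas the *Klf4* window held none of the 7. Over the whole 250 bases and the 9 members with an entry, the KLF motif was found in 5, the ZEB motif in 3, the PU.1 motif in 2 and the RBPJ motif in 1, and the GFI1, RUNX and NR4A motifs in 0. Among 32851 RefSeq promoters windows of that length held the KLF motif in 52.0%, PU.1 in 23.3%, RBPJ in 21.6%, ZEB in 17.2%, RUNX in 14.0%, GFI1 in 12.4% and NR4A in 4.08%. The table of promoters had no entry for *Spi1*. Like that of *Rbpj*, the windows of *Id2* and *Nr4a1* lie inside the gene as located above. A match describes letters alone, since no binding was measured.

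Libraries held 2295967 to 6079866 counts, and 3 counts, taken as the smallest amount shown, corresponded to a level of 0.349 to 1.17 CPM. CPM are the counts of a gene scaled to library size multiplied by the TMM factor, edgeR's scaling factor of each library. These factors were 0.722 to 1.46, below 1 in every G-MDSC library and above 1 in every M-MDSC library. *Nlrp3* was at 40.7 to 88.9 CPM in WT M-MDSCs and 0.514 to 1.88 CPM in Nlrp3-/- M-MDSCs, and at 252 to 331 CPM in WT G-MDSCs and 5.51 to 13.6 CPM in Nlrp3-/- G-MDSCs, which matched the labels. The 3′ end that is counted lies beyond the cassette, and the source of the remaining counts was not tested. The 10 monocyte markers summed to 6078 to 9992 CPM in M-MDSCs and 711 to 1375 CPM in G-MDSCs, and the 10 neutrophil markers read here summed to 1456 to 8758 CPM in M-MDSCs and 115340 to 175730 CPM in G-MDSCs. *Ly6g* is not analysed here. WT M-MDSC replicate 2 stood apart, with neutrophil markers at 8758 CPM against 1456 to 2554 CPM in the other M-MDSC libraries, immature granulocyte markers at 305 CPM against 60.9 to 134 CPM, and cycling markers at 512 CPM against at most 177 CPM, and calls that change without it are given both ways. Melanoma markers summed to at most 1.45 CPM. The sum of 8 red pulp macrophage markers was 75.3 to 83.7 CPM in WT and 159 to 288 CPM in Nlrp3-/- M-MDSCs, and in G-MDSCs 95.2 to 245 CPM for WT and 398 to 560 CPM for Nlrp3-/- mice. In bulk samples, fewer cells of a type and less RNA per cell cannot be told apart.

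**Figure D1:**
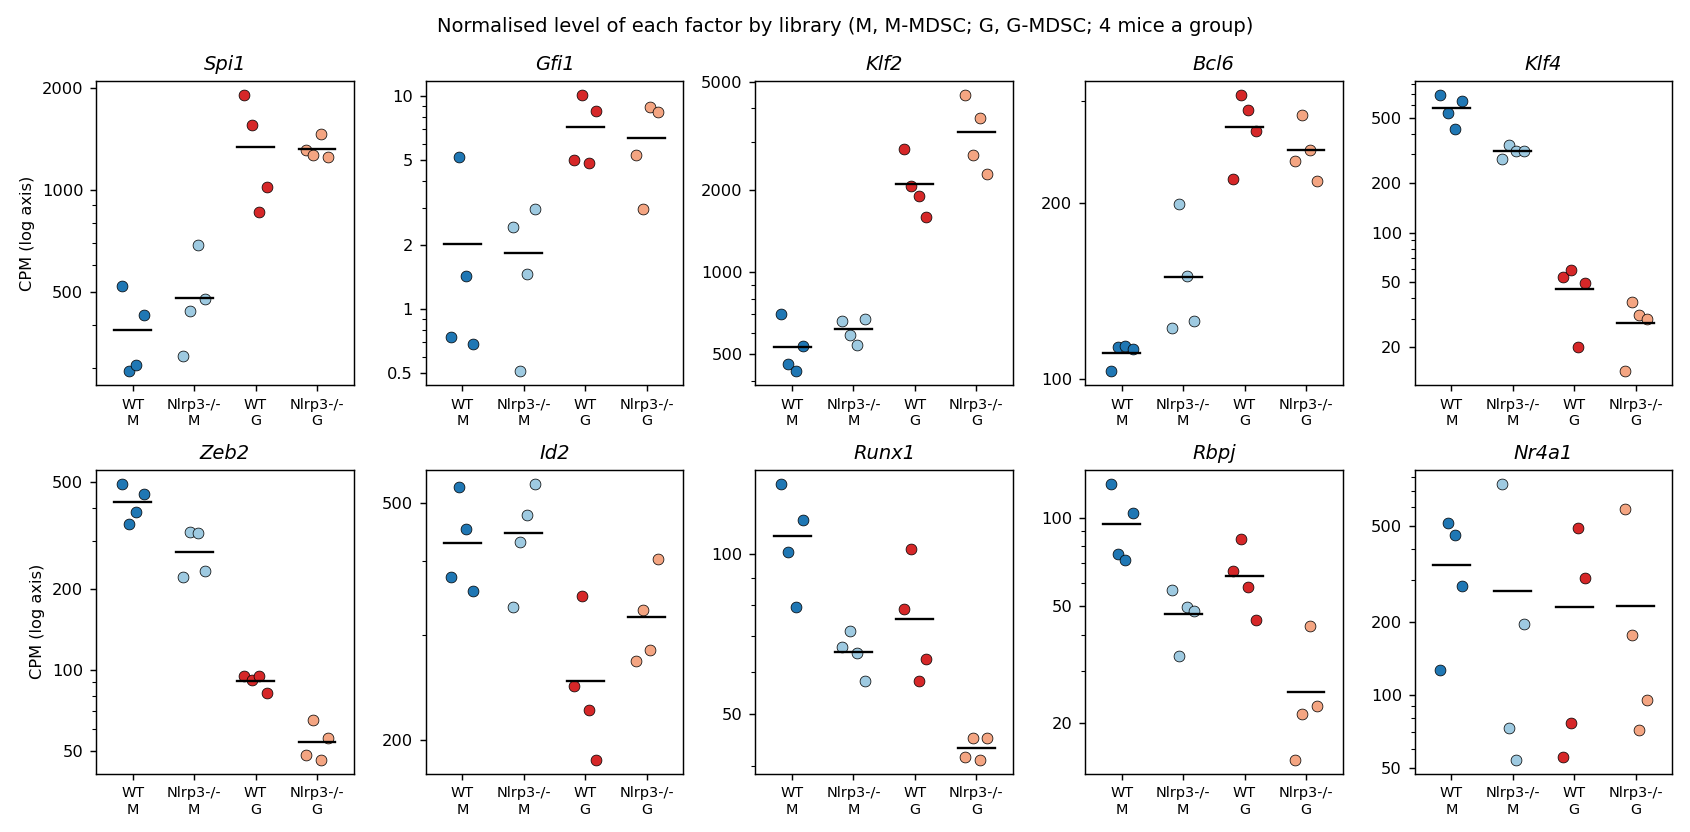
Level of each factor in CPM (vertical axis, logarithmic, its range set per gene) in the 16 libraries, by genotype and subset, with 1 point a mouse and a bar at the mean of 4. *Klf4* fell from a mean of 573 CPM in WT M-MDSCs to 45.5 CPM in WT G-MDSCs, while *Nr4a1* spread from 53.9 to 748 CPM with no separation of groups.

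The first question was how the factors differ between the subsets. *Spi1*, *Klf2* and *Bcl6* were higher in G-MDSCs of both genotypes, and *Klf4* and *Zeb2* were lower in G-MDSCs of both. *Id2* was called lower in G-MDSCs of WT mice, and *Runx1* and *Rbpj* in G-MDSCs of Nlrp3-/- mice. For none of these was the subset difference shown to differ between genotypes (below). *Gfi1* was called higher in both but was counted too rarely in M-MDSCs to pass the filter there, and its call was often lost (below). A gene was called when edgeR gave it a Benjamini-Hochberg adjusted p below 0.05 and it differed by more than 1.5-fold. In WT mice 7 of 10 members were called (4 higher and 3 lower in G-MDSCs), where 53.3% of 9739 tested genes were called (26.3% higher and 27.1% lower). In Nlrp3-/- mice 8 of 10 were called (4 higher and 4 lower), where 51.0% of 10071 genes were (23.7% higher and 27.4% lower). Without *Gfi1* the calls were 6 of 9 and 7 of 9. The 2 groups of libraries did not overlap for 6 members in WT mice and 7 in Nlrp3-/- mice, as held for 51.9% and 50.2% of genes. Subset differences of this kind were thus common among all genes. The median log2 fold change of the members was −0.54 in WT and −0.46 in Nlrp3-/- mice, against −0.05 and −0.12 over all tested genes. The CPM printed here were scaled over all 16 libraries and each fold change within its own comparison, so the ratio of printed means can differ slightly from the fold.

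*Klf4*, a zinc finger factor that drives monocyte differentiation, showed the widest difference of the members. Its levels in WT M-MDSCs were 691, 539, 425 and 638 CPM, and those in WT G-MDSCs 53.4, 58.9, 20.1 and 49.4 CPM. The groups did not overlap, and *Klf4* was 12.6-fold lower in G-MDSCs (log2 fold change −3.66 ± 0.31 SE, n = 4 against 4, adjusted p = 1.43e-06, edgeR quasi-likelihood test). Only 4.24% of tested genes differed by more. In Nlrp3-/- mice *Klf4* was at 280.01 to 344 CPM in M-MDSCs and 14.3 to 37.8 CPM in G-MDSCs, a difference of 12.0-fold (log2 −3.59 ± 0.25, adjusted p = 3.07e-08). Within each of the 8 mice, as paired by the labels, the M-MDSC level was 9.11 to 21.1 times the G-MDSC level.

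*Zeb2*, which encodes an E-box repressor needed for the monocyte line, had the same direction. WT M-MDSCs had 493, 347, 386 and 452 CPM and WT G-MDSCs 94.8, 91.4, 95.0 and 81.7 CPM, without overlap. The difference was 4.61-fold in WT mice (log2 −2.21 ± 0.16, adjusted p = 4.15e-07) and 5.53-fold in Nlrp3-/- mice (log2 −2.47 ± 0.18, adjusted p = 7.13e-08). *Zeb2* varied little among the WT G-MDSCs, with a coefficient of variation of 6.86% that was undercut by 2.30% of the genes.

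*Id2*, the inhibitor of E proteins, differed less. It ranged from 356 to 532 CPM in WT M-MDSCs and from 185 to 348 CPM in WT G-MDSCs, and was 1.70-fold lower in the latter (log2 −0.77 ± 0.21, adjusted p = 0.00827). In Nlrp3-/- mice the ranges were 335 to 539 CPM and 272 to 403 CPM, and the log2 difference of −0.58 ± 0.18 had an adjusted p of 0.0140 but a fold of 1.4958, just under the limit of 1.5. It was called there with upper-quartile scaling (−0.74 ± 0.18) and with library size alone (−1.30 ± 0.17). The medians of all genes under these scalings were −0.28 and −0.83. *Id2* was also called with no filter (−0.62), with at least 10 counts in every library (−0.63) and without the fold limit. The same held without Nlrp3-/- M-MDSC replicate 1 (−0.69) or 2 (−0.61) or Nlrp3-/- G-MDSC replicate 4 (−0.67). In 12 of 20 alternatives it stayed uncalled. All 8 mice had the lower *Id2* level in G-MDSCs. 

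*Klf2*, the quiescence and trafficking factor, rose towards G-MDSCs. WT M-MDSCs had 704, 462, 433 and 535 CPM and WT G-MDSCs 2840, 2070, 1908 and 1594 CPM. These groups were fully apart, as were those of Nlrp3-/- mice at 543 to 676 CPM and 2289 to 4475 CPM. *Klf2* was 3.95-fold higher in WT (log2 1.98 ± 0.23, adjusted p = 1.85e-05) and 4.91-fold higher in Nlrp3-/- G-MDSCs (log2 2.30 ± 0.22, adjusted p = 7.29e-07). Its near relative *Klf4* thus lay on the other side in every mouse.

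*Spi1* ranged from 293 to 522 CPM in WT M-MDSCs and from 863 to 1905 CPM in WT G-MDSCs. PU.1, its product, is used by both lineages, and the transcript was present in every library. The rise was 3.47-fold in WT mice (log2 1.79 ± 0.28, adjusted p = 0.00019) and 2.55-fold in Nlrp3-/- mice (log2 1.35 ± 0.20, adjusted p = 5.04e-05), where M-MDSCs had 324 to 689 CPM and G-MDSCs 1253 to 1465 CPM.

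*Bcl6*, the zinc finger repressor, had 103, 113, 114 and 112 CPM in WT M-MDSCs and 221, 307, 290 and 266 CPM in WT G-MDSCs. It was 2.45-fold higher in WT G-MDSCs (log2 1.29 ± 0.15, adjusted p = 1.72e-05). In Nlrp3-/- mice the values were 122, 200, 150 and 125 CPM against 236, 284, 247 and 219 CPM, again apart, and the difference was 1.54-fold (log2 0.62 ± 0.17, adjusted p = 0.00825), although without any scaling but library size, which shifted the median of all genes to −0.83, it turned to −0.10 (adjusted p = 0.632), and with upper-quartile scaling, where that median was −0.28, it was 0.46 and not called. It also fell below the limit of 1.5-fold with no filter (log2 0.58), with at least 10 counts in every library (0.56), and without Nlrp3-/- M-MDSC replicate 1 (0.54) or 4 (0.55) or Nlrp3-/- G-MDSC replicate 2 (0.57). In WT mice *Bcl6* kept its direction under library size alone (log2 0.55) but missed the fold limit. Relative to the median of all genes, *Bcl6* stayed higher in G-MDSCs under each of these scalings.

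*Gfi1*, the repressor required for neutrophil differentiation, was scarce, at 15 to 30 counts a library in WT G-MDSCs with 12 to 43 in those of Nlrp3-/- mice. M-MDSCs of WT mice had 0.743, 5.20, 1.43 and 0.685 CPM (2 to 37 counts) and G-MDSCs 5.01, 10.2, 4.85 and 8.56 CPM. The groups overlapped through WT M-MDSC replicate 2, the library with raised neutrophil markers. With it *Gfi1* was 3.22-fold higher in G-MDSCs (log2 1.69 ± 0.58, adjusted p = 0.0264), and without it the log2 difference was 2.75 ± 0.52 (adjusted p = 0.000925). In Nlrp3-/- mice *Gfi1* was at 0.512 to 2.95 CPM in M-MDSCs and 2.96 to 8.91 CPM in G-MDSCs (log2 1.62 ± 0.58, adjusted p = 0.0298). The call was lost without any of WT M-MDSC replicates 1, 3 and 4 and WT G-MDSC replicates 2 and 4 (adjusted p = 0.0593 to 0.0744), and in Nlrp3-/- mice without M-MDSC replicate 2 or 3 or G-MDSC replicate 3 or 4 (adjusted p = 0.0660 to 0.0769). With library size alone it was lost as well, at 0.97 ± 0.57 in WT and 0.91 ± 0.59 in Nlrp3-/- mice, against medians of all genes of −0.79 and −0.83. *Gfi1* passed the filter on low counts in these comparisons through G-MDSCs and did not pass it among the M-MDSC libraries.

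*Runx1* and *Rbpj* were lower in G-MDSCs of Nlrp3-/- mice, where *Runx1* fell 1.63-fold (log2 −0.71 ± 0.16, adjusted p = 0.00205) and *Rbpj* 2.01-fold (log2 −1.01 ± 0.29, adjusted p = 0.00957). In WT mice the log2 differences were −0.51 ± 0.22 for *Runx1* (adjusted p = 0.0626) and −0.58 ± 0.24 for *Rbpj* (adjusted p = 0.0529), and neither was called. Without WT M-MDSC replicate 2, the library that stood apart, *Rbpj* was called (−0.75 ± 0.26, adjusted p = 0.0278). Both were called in WT mice under library size alone (*Runx1* −1.26, *Rbpj* −1.34), where the median of all genes was −0.79. Both were called with upper-quartile scaling too (−0.72 and −0.80), where that median was −0.27, and with a minimum of 10 counts in every library. Of 20 alternatives in WT mice, 10 called *Rbpj* and 5 called *Runx1*. *Nr4a1* showed log2 differences of −0.58 ± 0.60 and −0.34 ± 0.76 in WT and Nlrp3-/- mice, with adjusted p of 0.431 and 0.731.

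**Figure D2:**
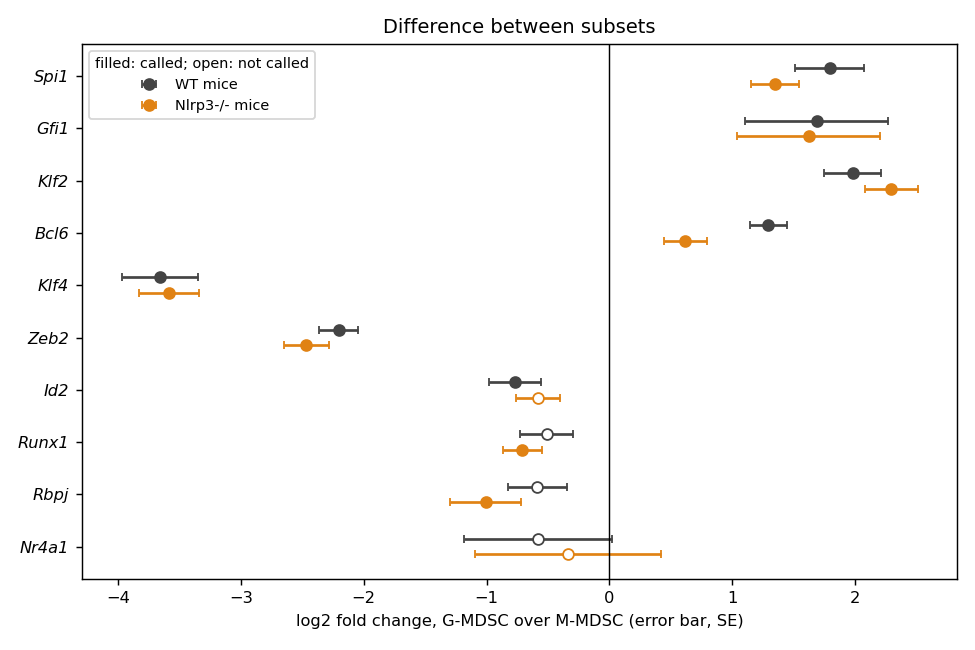
Log2 fold change of G-MDSCs over M-MDSCs (horizontal axis, bars give the SE, 4 mice a group) for each factor in WT and Nlrp3-/- mice. *Spi1*, *Gfi1*, *Klf2* and *Bcl6* lie to the right of 0 and *Klf4* and *Zeb2* far to its left in both genotypes.

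The second question, the one the study was built on, was what changes without *Nlrp3* within each subset. *Klf4*, *Runx1* and *Rbpj* were lower in Nlrp3-/- M-MDSCs, and *Runx1*, *Rbpj* and *Zeb2* were lower in Nlrp3-/- G-MDSCs. In the fit of each subset by itself, neither edgeR nor DESeq2 called a member higher (0 of 9 and 0 of 10), although other fits called *Klf2* in G-MDSCs (below). At an unadjusted p under 0.05 the edgeR test gave 1 higher in each, *Bcl6* in M-MDSCs and *Klf2* in G-MDSCs. *Klf4*, *Runx1*, *Rbpj* and *Zeb2* were lower at that level in both subsets. The share of all genes at that level was not computed. In M-MDSCs 3 of the 9 tested members were called lower, where 10.6% of 9986 genes were called (3.51% higher and 7.10% lower), and in G-MDSCs 3 of 10 were called lower, where 16.4% of 9273 genes were called (4.70% higher and 11.7% lower). The median log2 fold change of the tested members was −0.30 in M-MDSCs and −0.23 in G-MDSCs, and that of all tested genes 0.07 and 0.03.

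**Figure D3:**
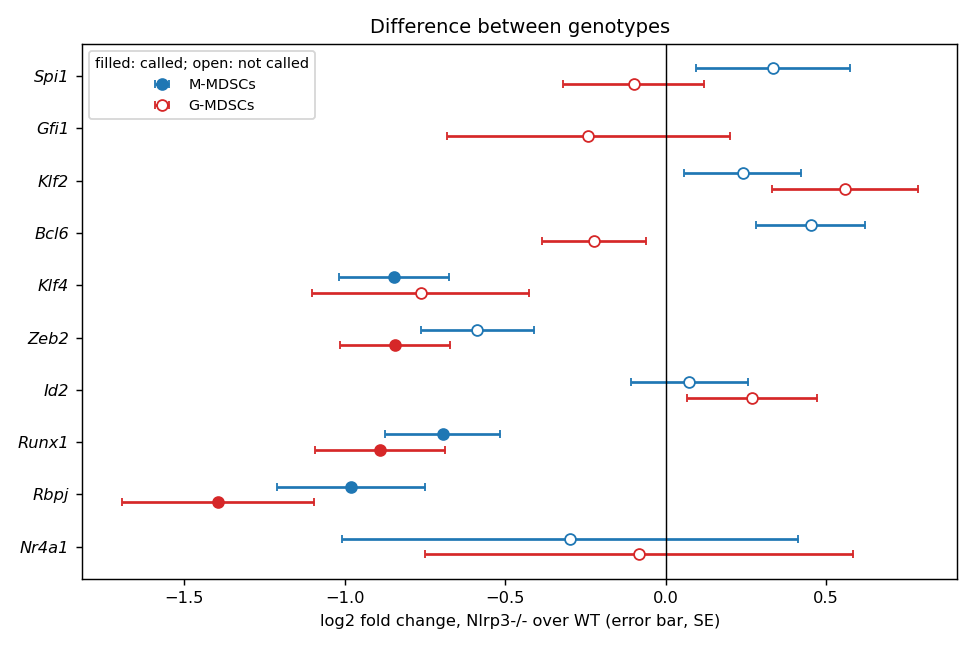
Log2 fold change of Nlrp3-/- over WT (horizontal axis, bars give the SE, 4 mice a group) for each factor in M-MDSCs and G-MDSCs. *Rbpj* lies farthest to the left in both subsets, at −0.98 and −1.40, and *Gfi1* was tested only in G-MDSCs.

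*Rbpj*, the nuclear effector of Notch signaling, had the largest of the called decreases, although with the correction for GC content and length described below that of *Klf4* was larger in both subsets (−1.09 against −0.68 and −1.04 against −1.01, the *Klf4* value in G-MDSCs not called). WT M-MDSCs had 131, 75.4, 72.1 and 103 CPM and Nlrp3-/- M-MDSCs 56.8, 34.0, 49.7 and 48.2 CPM, without overlap (1.97-fold lower, log2 −0.98 ± 0.23, adjusted p = 0.0205). WT G-MDSCs had 65.8, 84.9, 57.9 and 44.8 CPM and Nlrp3-/- G-MDSCs 15.0, 21.5, 42.7 and 22.8 CPM, again without overlap (2.63-fold lower, log2 −1.40 ± 0.30, adjusted p = 0.00593). Nlrp3-/- G-MDSC replicate 3 was just below the lowest WT library. The call in M-MDSCs was lost without WT M-MDSC replicate 1 (adjusted p = 0.0526) or replicate 4 (adjusted p = 0.0631), and the call in G-MDSCs was kept in all 8 fits that left out 1 library.

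*Runx1*, the CBFβ partner, had 135, 101, 79.4 and 115 CPM in WT M-MDSCs and 66.8, 71.5, 65.2 and 57.7 CPM in Nlrp3-/- M-MDSCs. The groups were apart and the decrease was 1.62-fold (log2 −0.69 ± 0.18, adjusted p = 0.0292). The call was lost without any of WT M-MDSC replicates 1, 2 and 4 and Nlrp3-/- M-MDSC replicates 3 and 4 (adjusted p = 0.0598 to 0.0867). It was also lost in a model with a replicate block (adjusted p = 0.0794), which between genotypes joins different mice by number alone. In G-MDSCs *Runx1* was at 78.8, 102, 57.7 and 63.4 CPM in WT and at 41.6, 45.2, 41.0 and 45.1 CPM in Nlrp3-/- mice, 1.85-fold lower (log2 −0.89 ± 0.20, adjusted p = 0.00821), and there the call was kept in all 8 fits. The Nlrp3-/- libraries varied by 5.16% (coefficient of variation), and 2.18% of genes varied less.

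*Klf4* in M-MDSCs, at the WT levels given above, fell to 280.01, 344, 316 and 315 CPM in Nlrp3-/- mice. Every Nlrp3-/- library was below every WT library (1.80-fold, log2 −0.85 ± 0.17, adjusted p = 0.0105), and the call was kept without any 1 library (adjusted p = 0.00958 to 0.0417). In G-MDSCs, where *Klf4* is low, Nlrp3-/- mice had 14.3, 37.8, 31.5 and 29.6 CPM, which overlapped WT G-MDSC replicate 3 at 20.1 CPM, and the log2 difference of −0.76 ± 0.34 was not called (adjusted p = 0.135). Without that WT library it was −0.999 ± 0.28 and called (adjusted p = 0.0257).

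*Zeb2* in G-MDSCs fell to 48.1, 64.9, 46.2 and 55.6 CPM in Nlrp3-/- mice, below all WT libraries (1.79-fold, log2 −0.84 ± 0.17, adjusted p = 0.00427), and was called in all 8 fits that left out 1 library. In M-MDSCs *Zeb2* had 221, 324, 322 and 233 CPM in Nlrp3-/- mice against at least 347 CPM in WT mice. There the groups did not overlap, the log2 difference was −0.59 ± 0.18, and the adjusted p of 0.0508 was just over the threshold. DESeq2 (adjusted p = 0.0164), edgeR's exact test (0.0399), a minimum of 10 counts (0.0406) and the model of all 16 samples (0.0252) called it. In 16 of 20 alternatives it stayed uncalled, among them all 8 fits that left out 1 library (adjusted p = 0.0509 to 0.153).

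The remaining members were not called between genotypes. *Klf2* in G-MDSCs had a log2 difference of 0.56 ± 0.23 (adjusted p = 0.104), which was called without WT G-MDSC replicate 1 (0.72 ± 0.22, adjusted p = 0.0422) and in the model of all 16 samples (0.64 ± 0.22, adjusted p = 0.0470). *Bcl6* in M-MDSCs was higher in all 4 Nlrp3-/- libraries than in any WT library, with a log2 difference of 0.45 ± 0.17 (adjusted p = 0.0993), and in G-MDSCs it was −0.22 ± 0.16 (adjusted p = 0.364). *Spi1* (0.34 ± 0.24 and −0.10 ± 0.22 in M-MDSCs and G-MDSCs), *Id2* (0.07 ± 0.18 and 0.27 ± 0.20) and *Klf2* in M-MDSCs (0.24 ± 0.18) had adjusted p of 0.369 or more, and *Gfi1* in G-MDSCs had −0.24 ± 0.44 (adjusted p = 0.745). Counting these with the calls, the groups did not overlap for 5 of 9 members in M-MDSCs, where that held for 19.3% of all genes, and for 3 of 10 in G-MDSCs, where it held for 24.4%.

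*Zeb2*, *Rbpj* and *Runx1* have long transcripts of low GC content, a property that the choice of genes did not use. *Klf4*, called lower in M-MDSCs, has a GC content of 54.6% and 3029 bases. *Id2*, not called between genotypes, has a low GC content of 45.1% but a short transcript of 1969 bases. The longest annotated transcripts of *Zeb2*, *Rbpj* and *Runx1* have a GC content of 40.6%, 43.7% and 46.4% and lengths of 9124, 5485 and 5861 bases, and those of *Klf2* and *Spi1* 61.6% and 58.9% and 1847 and 2034 bases. Over all tested genes in M-MDSCs the median log2 fold change of Nlrp3-/- over WT went from −0.23 in the 2483 genes of lowest GC content to 0.30 in the 2483 of highest, and the share called lower from 15.1% to 1.41%. In G-MDSCs the medians were −0.36 and 0.30 and the shares 23.9% and 2.30%. Sorted by transcript length, the shortest and the longest genes, in groups of the same size, had medians of 0.22 and −0.19 in M-MDSCs and 0.25 and −0.32 in G-MDSCs.

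With a correction for GC content and length, *Klf4* remained called in M-MDSCs (log2 −1.09 ± 0.16, adjusted p = 0.00650) and *Rbpj* in G-MDSCs (−1.01 ± 0.30, adjusted p = 0.0431). *Runx1* was then at −0.46 ± 0.17 (adjusted p = 0.124) in M-MDSCs and −0.59 ± 0.20 (adjusted p = 0.0692) in G-MDSCs, *Rbpj* in M-MDSCs at −0.68 ± 0.24 (adjusted p = 0.0997), and *Zeb2* at −0.12 ± 0.17 (adjusted p = 0.706) and −0.24 ± 0.17 (adjusted p = 0.378), and none of these was called. *Klf2* in G-MDSCs moved to 0.09 ± 0.22, and *Spi1* and *Klf2* in M-MDSCs changed sign, to −0.05 and −0.15. *Klf4* moved away from 0. With the replicate block added, *Klf4* in M-MDSCs was still called (−1.07 ± 0.17, adjusted p = 0.0401) and *Rbpj* in G-MDSCs was not (−1.08 ± 0.31, adjusted p = 0.0778). Between genotypes that block joins different mice by number alone, so it cannot decide whether a call holds. The subset differences of *Klf4*, *Zeb2*, *Klf2*, *Spi1*, *Gfi1* and *Bcl6* were called with the correction too, in both genotypes.

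**Figure D4:**
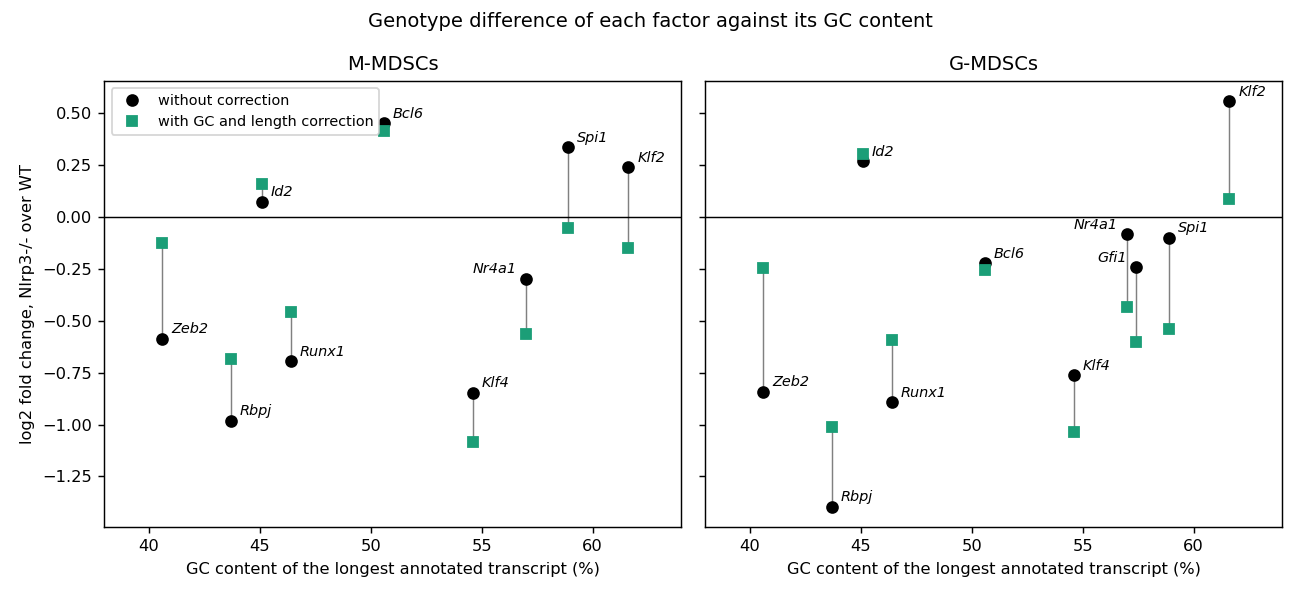
Log2 fold change of Nlrp3-/- over WT (vertical axis) against the GC content in percent of the longest annotated transcript (horizontal axis) for each tested factor in M-MDSCs (left) and G-MDSCs (right), as counted and with the correction for GC content and length. Grey lines join both values of a gene, and those of *Zeb2* run from −0.59 to −0.12 and from −0.84 to −0.24.

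Markers of other cells also moved with genotype. In Nlrp3-/- M-MDSCs 5 of 7 tested red pulp macrophage markers were called higher, and in Nlrp3-/- G-MDSCs 6 of 7, with sums that did not overlap between genotypes (given above). NK cell markers summed to 25.7 to 65.0 CPM in WT and 88.6 to 130 CPM in Nlrp3-/- M-MDSCs, where 1 of 4 tested was called higher. *Gzma* made up most of that sum (mean 34.1 and 79.5 CPM), and *Prf1* had 1.96 and 0.353 CPM. Cycling markers summed to 150 to 512 CPM in WT and 60.1 to 132 CPM in Nlrp3-/- M-MDSCs. In G-MDSCs the NK sums were 20.3 to 40.9 CPM and 52.1 to 87.9 CPM, with 1 of 2 called higher, and the cycling sums 123 to 422 CPM and 49.1 to 180 CPM. In each subset 2 of 5 cycling markers were called lower. Over all tested genes 3.51% were called higher and 7.10% lower in M-MDSCs, and 4.70% and 11.7% in G-MDSCs. Eosinophil and basophil markers summed to 4.64 to 24.9 CPM in WT and 24.5 to 68.8 CPM in Nlrp3-/- M-MDSCs, and in G-MDSCs to 25.7 to 51.8 CPM and 57.8 to 65.3 CPM, with 1 of 2 and 0 of 2 called higher. *Mertk* was at 0 in all 4 WT M-MDSC libraries, and at 0 were also *Epx* in Nlrp3-/- G-MDSCs and 3 haemoglobin genes in every library. The monocyte sum was 6078 to 8429 CPM in WT and 7392 to 9992 CPM in Nlrp3-/- M-MDSCs. Its 10 markers were split: 7 had a positive log2 fold change, 0 were called higher and 1 was called lower. The part of these cells in the genotype differences of the members was not tested.

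*Nr4a1*, an immediate early gene of antigen receptor and stress signals, varied more between mice of a group than between groups. WT M-MDSCs had 127, 514, 461 and 282 CPM and Nlrp3-/- M-MDSCs 748, 73.0, 53.9 and 197 CPM. WT G-MDSCs had 55.4, 76.8, 489 and 305 CPM and Nlrp3-/- G-MDSCs 589, 176, 71.5 and 95.7 CPM. Nlrp3-/- mouse 1 had the highest level of its genotype in both subsets. The coefficient of variation was 51.0% to 122%, above that of 89.3% to 98.5% of genes in the group. The log2 difference between genotypes was −0.30 ± 0.71 in M-MDSCs (adjusted p = 0.819), and −1.70 ± 0.48 and called without Nlrp3-/- M-MDSC replicate 1 (adjusted p = 0.0308), and in G-MDSCs it was −0.08 ± 0.67 (adjusted p = 0.947). Its relatives *Nr4a2* and *Nr4a3*, looked at after these values were seen, were at 159 and 7.10 CPM in Nlrp3-/- M-MDSC replicate 1, within the 120 to 243 CPM and 4.80 to 18.9 CPM of the other 3 Nlrp3-/- M-MDSC libraries.

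**Figure D5:**
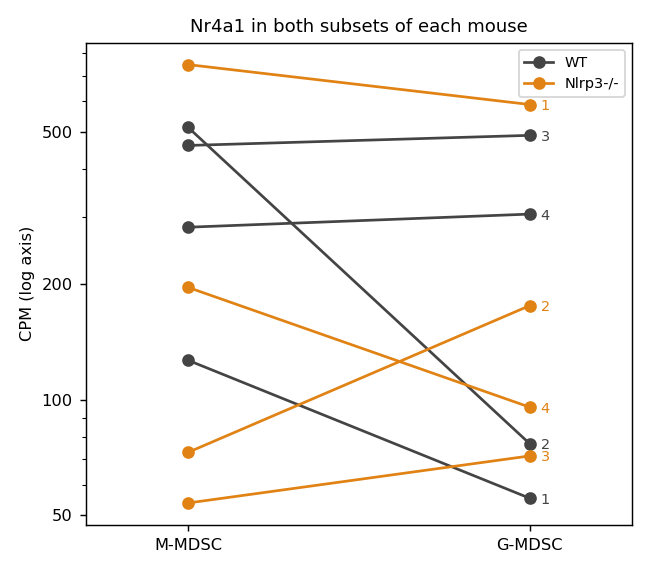
*Nr4a1* in CPM (vertical axis, logarithmic) in the M-MDSCs and G-MDSCs of each mouse, joined by a line and numbered by replicate. Nlrp3-/- mouse 1 is at the top in both subsets (748 and 589 CPM), and WT mouse 2 drops from 514 to 76.8 CPM.

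Whether the genotype effect differed between the subsets was tested in the model of all 16 samples. No member was called by edgeR, where 3 of 10696 genes (0.0280%) were called, nor by DESeq2, which called 8 genes. *Bcl6* had a log2 difference of −0.57 ± 0.23 (adjusted p = 0.992) and was the 1 member with an unadjusted value under 0.05. *Rbpj* differed by −0.29 ± 0.39, *Zeb2* by −0.15 ± 0.24, *Runx1* by −0.08 ± 0.27 and *Klf4* by 0.19 ± 0.39. The calls of *Klf4* in M-MDSCs alone and of *Zeb2* in G-MDSCs alone are thus not shown to be differences between the subsets.

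Other genes of the same circuits were read from lists that held no member. Their genotype calls come from the fit without the correction for GC content and length. Whether these calls hold with that correction or under the other alternatives was not tested. Among other myeloid fate factors, 1 of 47 tested was higher and 2 were lower in Nlrp3-/- M-MDSCs, where 3.51% of all tested genes were higher and 7.10% lower. The higher gene was *Lyl1*, a basic helix-loop-helix factor (log2 0.84 ± 0.20, adjusted p = 0.0204), and the lower ones included *Klf6*, a further Krüppel-like factor (−1.48 ± 0.23, adjusted p = 0.00413). In Nlrp3-/- G-MDSCs 3 of 47 were higher and 5 lower, where 4.70% of all tested genes were higher and 11.7% lower. The higher ones were *Spic*, the factor of red pulp macrophages that the marker list above also holds (2.00 ± 0.38, adjusted p = 0.00303), and *Egr2* and *Egr3*, immediate early zinc finger factors (1.99 ± 0.40, adjusted p = 0.00409, and 1.24 ± 0.35, adjusted p = 0.0262). The lower ones with the smallest p were *Klf3*, a Krüppel-like repressor that binds CtBP (−1.28 ± 0.19, adjusted p = 0.000482), *Zeb1*, the paralog of *Zeb2* (−1.04 ± 0.21, adjusted p = 0.00373), and *Bach1*, a heme-regulated repressor (−0.88 ± 0.18, adjusted p = 0.00491). The list medians were −0.19 and −0.06.

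Of 23 genes for partner proteins of the members, 0 were higher and 4 were lower in Nlrp3-/- M-MDSCs by edgeR, and 0 and 5 in G-MDSCs, with medians of −0.23 and −0.36. At an unadjusted p under 0.05 the counts were 0 and 8, and 0 and 9. The share of all genes at that level was not computed, so these counts are a description alone. Of all tested genes, edgeR called 3.51% higher and 7.10% lower in M-MDSCs, and 4.70% and 11.7% in G-MDSCs. *Ep300* and *Crebbp*, which encode the related histone acetyltransferases p300 and CBP, were lower in M-MDSCs (log2 −0.78 ± 0.15 and −0.73 ± 0.18) and in G-MDSCs (−1.01 ± 0.14 and −1.12 ± 0.16). *Kdm1a*, the histone demethylase recruited by GFI1, fell by 1.20 on the log2 scale in M-MDSCs (SE 0.23). *Notch1*, the receptor upstream of RBPJ, was lower in G-MDSCs (−1.05 ± 0.18, adjusted p = 0.0012).

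Of genes known as targets of the members, 1 of 19 was higher and 1 lower in Nlrp3-/- M-MDSCs, and 1 of 18 was higher and 4 were lower in Nlrp3-/- G-MDSCs, with medians of −0.16 and 0.20. The shares of all tested genes called higher and lower were 3.51% and 7.10% in M-MDSCs and 4.70% and 11.7% in G-MDSCs. *Itgam*, the CD11b gene and a PU.1 target, was lower in both (log2 −0.71 ± 0.19 and −0.97 ± 0.15). *Csf2ra*, a chain of the GM-CSF receptor, was higher in M-MDSCs (0.68 ± 0.19, adjusted p = 0.0396) and *Csf1r*, the M-CSF receptor gene, in G-MDSCs (0.64 ± 0.20, adjusted p = 0.0388). *Cxcr2*, the neutrophil chemokine receptor gene, and *Cdkn1a*, the p21 gene, were lower in G-MDSCs (−1.26 ± 0.22 and −1.05 ± 0.26). Of genes of nonclassical monocytes, the cells that depend on *Nr4a1*, 1 of 14 (*Eno3*, a muscle-type enolase, 0.64 ± 0.18, adjusted p = 0.0390) was higher and 0 were lower in M-MDSCs. In G-MDSCs 0 of 10 were called by edgeR. At an unadjusted p under 0.05 the counts higher and lower were 3 and 2 in M-MDSCs and 1 and 1 in G-MDSCs. The share of all genes at that level was not computed. Between the subsets the lists were called widely, as were all genes: 29 of 47 fate factors (16 higher and 13 lower in G-MDSCs), 11 of 23 partners (6 and 5), 18 of 20 targets (9 and 9) and 9 of 11 nonclassical monocyte genes (2 and 7) in WT mice. In Nlrp3-/- mice the counts higher and lower were 16 and 18 of 48, 8 and 5 of 23, 8 and 9 of 20, and 3 and 8 of 12. Over all tested genes 53.3% were called in WT and 51.0% in Nlrp3-/- mice. Some listed genes passed the filter on low counts only through the subset where they were higher. Within M-MDSCs and G-MDSCs, 19 and 18 of the 20 targets were tested. The filter favoured a call for such genes, so the list counts between subsets are a description alone.

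The genes whose log2 CPM followed a member most closely over the 16 libraries are given as a description, since the libraries share subsets and mice. *Klf4* was closest to *Itpr1* (Pearson r = 0.988) and *Fam71a* (0.98), and *Zeb2* to *Magt1* (0.982) and *Lpar6* (0.98). *Spi1* went with *Clic1* and *Snx20* (both 0.976), *Klf2* with *Jam3* (0.976) and *Acta2* (0.972), and *Bcl6* with *Oas2* (0.958) and *Ogt* (0.953). *Runx1* followed *Ptpn11* (0.96) and *Add3* (0.95), and *Rbpj* followed *Dock4* (0.936) and *Psmc6* (0.929). *Nr4a1*, which followed neither subset nor genotype, was nearest to *Apba3* (0.963) and *Cfap20* (0.96). *Id2* had *Ythdf1* (0.903) and *Aars* (0.9), and *Gfi1* had *Lin28a* (0.887) and *Camp* (0.884), the last of which is among the neutrophil markers.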

How the data were processed

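Reads were mapped to mm10 by the authors with HISAT2 2.1.0 and counted by strand with htseq-count, and the deposited counts are raw counts per gene symbol. Gene locations, GC contents and transcript lengths come from GENCODE for mm10 (23376 symbols matched by symbol and 670 by an older one). Tests were run with edgeR 4.0.16 under R 4.3.3 (filterByExpr, TMM, quasi-likelihood test, Benjamini-Hochberg adjustment over all tested genes) and checked with DESeq2 1.42.0. A called gene has an FDR under 0.05 and a fold above 1.5, and the SE is the log2 fold change divided by the square root of F. The code was tested on simulated data. The members, gene lists and marker lists were chosen with earlier results of these data known, so they are no independent support. The text names all members, *Nlrp3*, up to 3 higher and 3 lower called genes of each list with the smallest p, and the 2 genes most like each member. A gene that this rule names is not reported here. Each sample is 1 mouse, and within a genotype, M-MDSCs and G-MDSCs with 1 number share an animal code in the label descriptions and are taken as 1 mouse, whereas same-numbered WT and Nlrp3-/- samples are different mice. In the 4 mice of a genotype, deviations of same-numbered samples correlated by 0.0971 to 0.397 in WT and 0.00821 to 0.382 in Nlrp3-/- mice. The correction enters splines of GC content and log2 length (4 degrees of freedom each), fitted per sample, as offsets. Other alternatives were other scalings, filters and tests, a model of all 16 samples, a replicate block, and leaving out each sample. No library repeated another (0 of 24 pairs within groups). Limits from 3 counts cover counting error only. Figures were drawn in Python 3.11.15 with matplotlib 3.10.9.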

Additional observations from a re-analysis of the deposited data

Results flagged for a closer look

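In 2 of 40 groups of 4 libraries (10 members in 4 groups), 1 library lay far from the other 3 by Dixon's criterion, which chance meets in about 1 of 20 groups. *Gfi1* in WT M-MDSCs was highest in replicate 2, at 5.20 CPM against 0.685 to 1.43 CPM in the other 3 libraries, and that library also had the highest neutrophil markers among M-MDSCs (8758 CPM). *Bcl6* in WT M-MDSCs was lowest in replicate 1, at 103 CPM against 112 to 114 CPM, a gap that is large only beside the narrow spread of the other 3 libraries.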

How the results depend on the processing

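Of 1037 values of the members under alternatives, 932 kept their direction and side of the threshold, 35 kept the direction but lost the call, 31 gained a call and 39 changed sign. The 3 calls in M-MDSCs became 1 with the GC and length correction and 1 with that correction and the replicate block, and ranged from 1 to 4 when 1 library was left out. They were 1 without WT M-MDSC replicate 1 and 1 without WT M-MDSC replicate 4. The 3 calls in G-MDSCs became 1 and 0 under the same corrections and were 3 or 4 with 1 library left out. The replicate block left 2 members called in M-MDSCs and 3 in G-MDSCs and changed no call of a member between subsets. Between genotypes a shared number is only a name, and same-numbered samples correlated by −0.452 to 0.0177 in M-MDSCs and −0.263 to −0.0438 in G-MDSCs. Calls over all genes fell from 1060 to 425 with the block, 663 with the correction and 86 with both in M-MDSCs, and from 1522 to 985, 953 and 455 in G-MDSCs. With 1 library left out, calls in M-MDSCs ranged from 450 (without Nlrp3-/- M-MDSC replicate 4) to 1783 (without Nlrp3-/- M-MDSC replicate 1), and were 514, 669 and 473 without WT M-MDSC replicates 2, 3 and 4 and 702 without Nlrp3-/- M-MDSC replicate 3. Of all genes, 3 were called for the difference of the genotype effects, and 5 without a filter, 8 by DESeq2 and 5 with the correction and block.

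Values that changed sign were not called. In M-MDSCs *Spi1* was −0.0512 with the correction and −0.0452 with the block as well, and *Klf2* −0.15 and −0.15. In G-MDSCs *Spi1* was 0.0391 and *Nr4a1* 0.0468 with library size only, and *Nr4a1* was 0.0059 in the model of all 16 samples. *Bcl6* between subsets in Nlrp3-/- mice was −0.10 with library size only. The difference of the genotype effects for *Gfi1* was −0.0645 with DESeq2 size factors, −0.10 with library size only, −0.0223 with upper-quartile factors, −0.0772 with DESeq2, −0.20 with the replicate block, −0.0166 with the correction and −0.25 with both. Over fits that left out 1 library, *Id2* in M-MDSCs ranged from −0.0594 to 0.20, *Nr4a1* in M-MDSCs from −1.70 to 0.0488 and in G-MDSCs from −1.10 to 0.62, *Spi1* in G-MDSCs from −0.24 to 0.10, and *Nr4a1* between subsets in Nlrp3-/- mice from −1.36 to 1.00. The difference of the genotype effects then ranged from −1.27 to 0.35 for *Gfi1*, −0.66 to 1.49 for *Nr4a1*, −0.23 to 0.10 for *Runx1* and −0.0608 to 0.41 for *Klf4*. Scaling by library size only changed the split of calls in WT mice from 2557 higher and 2636 lower in G-MDSCs to 1166 and 5061, in Nlrp3-/- mice from 2383 and 2758 to 1146 and 5034, in M-MDSCs between genotypes from 351 and 709 to 684 and 569, and in G-MDSCs from 436 and 1086 to 793 and 854. Upper-quartile factors gave 2051 and 3324 in WT mice, 2014 and 3218 in Nlrp3-/- mice and 636 and 992 in G-MDSCs between genotypes, where the model of all 16 samples gave 828 and 1079. The cause of these changes was not tested.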
